A study of Mus musculus with 15 samples.

Results

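Purine signalling was described through 7 genes of nucleotide sensing and breakdown. They are the ATP-gated channels P2rx7, P2rx4 and P2rx1, the UDP-glucose receptor P2ry14, the surface enzymes Entpd1 (CD39) and Nt5e (CD73), and the adenosine deaminase gene Ada. The list named 8 genes, chosen by their role in this pathway and matched by gene symbol. The 7 matched genes stand among 19937 genes measured, each taken from the probe set with the highest mean over the 15 arrays, and Adora2b was not analysed here. P2rx7 was chosen on these same arrays for moving in opposite directions at the 2 stages, so its values are given without a test in every comparison, each of which uses arrays of that choice. The other genes were listed with results of these data known, and counts of them describe the list.

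Cells release ATP, UDP-glucose and other nucleotides when they are stressed, damaged or activated, and neighbouring cells sense them. P2X receptors are ion channels opened by ATP, and P2Y receptors are G protein-coupled. On the cell surface CD39 cuts ATP and ADP down to AMP, CD73 turns AMP into adenosine, and adenosine deaminase converts adenosine to inosine. P2X7 needs high ATP, and its opening lets potassium out of the cell, a trigger of the NLRP3 inflammasome and of interleukin 1β release in myeloid cells. P2Y14 is known on early blood-forming progenitors.

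The series profiled bone marrow progenitors of female C57BL/6 mice on Affymetrix arrays, 3 weeks after conditional knockout, to look for genes deregulated before leukaemia. PreGMs, the earlier stage, and GMPs, the later stage, were sorted from Lin-, cKit+ cells without Sca1, CD41 or CD150, preGMs as FcgRII- and Endoglin- and GMPs as FcgRII+. There were 5 groups of 3 arrays: preGM cebpa +/+ (labelled with Mx1Ce), and, all with Mx1Cre, preGM cebpa fl/p30, GMP cebpa fl/+, GMP cebpa fl/BRM2 and GMP cebpa fl/p30. The floxed copy of Cebpa, the gene of the myeloid factor C/EBPα, is deleted by Cre, which leaves the p30 allele (a shorter isoform only) or the BRM2 allele (a mutated basic region) alone. Of the controls, preGM +/+ kept both normal alleles and GMP fl/+ just 1, so stage and control genotype cannot be told apart wherever the controls are compared. Mx1-Cre is induced through interferon and acts in many tissues, so deletion was not limited to the sorted cells. Both fl/p30 populations came from the same 3 animals, and the other groups came from animals of their own.

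Values are log2 expression, a difference of 1 is a doubling, and ± is the standard error (SE) of a difference unless SD is named. Array medians lay between 6.03 and 6.23, and a gene near them is near the background of the array. Levels of different genes cannot be set against each other, since each probe set binds differently. Of the gate genes Fcgr3, an FcγR gene, was 2.98 higher in GMP fl/+ than in preGM +/+ and 2.35 higher in GMP fl/p30 than in preGM fl/p30. Of 7 gate genes measured limma called 5 between the controls, where 10.2% of all genes were called. Fcgr2b stood at 1.48, and Kit, Cd34 and Eng at -0.59, -1.03 and -0.74 (Kit lost without any 1 of 3 arrays). Eng was thus higher in preGM +/+, although preGMs were sorted as Endoglin-. Between the fl/p30 stages limma called Fcgr3 alone. Slamf1 (CD150) lay below the median on all 15 arrays, while in GMP fl/p30 Itga2b (CD41) exceeded GMP fl/+ by 1.04 (limma adjusted p = 0.0244, lost without replicate 1 or 2 of GMP fl/p30). The group means of Cebpa itself lay between 8.38 and 9.09, and the position of its probes against the deleted part is not known here, so they check nothing about the deletion. In these bulk samples fewer cells of a type and less RNA per cell cannot be told apart.

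P2rx7, the ATP-gated channel that feeds the inflammasome, is probe set 10525419. Its promoter stretch and those of P2rx4 and P2rx1 are shown because these channel genes carried the changes below. Each runs 5′ to 3′ on the plus strand of GRCm38.p6, taken from RefSeq, from 250 bases before the listed start up to where the gene model begins. P2rx7 is at chr5:122643677-122643926, P2rx4 at chr5:122707294-122707517 and P2rx1 at chr11:72998895-72999055. Capitals would mark a C/EBP motif (TTGCNNAA) or an E2F motif (TTTGGCGC or TTTCCCGC) on either strand, and none of the 3 stretches holds one.
P2rx7: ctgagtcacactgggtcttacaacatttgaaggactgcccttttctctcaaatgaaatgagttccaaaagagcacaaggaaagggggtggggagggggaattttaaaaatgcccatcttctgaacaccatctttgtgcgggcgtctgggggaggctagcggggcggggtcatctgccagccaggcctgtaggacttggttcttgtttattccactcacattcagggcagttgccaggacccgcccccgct
P2rx4: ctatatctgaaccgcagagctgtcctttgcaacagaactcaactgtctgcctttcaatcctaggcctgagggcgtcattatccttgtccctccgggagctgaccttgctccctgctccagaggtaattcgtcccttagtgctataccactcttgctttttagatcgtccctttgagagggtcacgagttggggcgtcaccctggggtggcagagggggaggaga
P2rx1: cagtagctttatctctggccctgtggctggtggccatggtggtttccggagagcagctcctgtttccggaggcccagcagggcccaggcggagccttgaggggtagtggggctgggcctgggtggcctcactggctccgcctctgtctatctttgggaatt

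Among 32851 RefSeq promoter windows of 250 bases, 9.56% held the C/EBP motif and 1.3% an E2F motif. The 7 genes have 12 such windows, and 1 of them, at the last of 4 listed starts of P2ry14 (chr3:59130763-59131012, minus strand), held the C/EBP motif. It held 2 copies, TTCAGCAA beginning 89 bases and TTAAGCAA 22 bases before that start, both read as the reverse complement of the motif. A match is no evidence of binding, and where none was found it says only that these letters are absent from these windows.

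In preGMs P2rx7 stood at 7.21, 7.32 and 7.04 in +/+ and at 6.40, 6.56 and 6.58 in fl/p30. In GMPs it stood at 6.63, 6.85 and 6.83 in fl/+ arrays, at 7.55, 7.85 and 7.55 in those of fl/BRM2, and at 8.07, 7.73 and 7.46 in those of fl/p30. Every fl/p30 preGM array thus lay below the preGM controls, and every mutant GMP array lay above the GMP controls. Separation of all mutant arrays from control is common at 3 against 3. It was found for 25.1% of all genes in preGM fl/p30, 17.4% in GMP fl/p30 and 15.2% in GMP fl/BRM2. The means were 7.19 ± 0.14 (SD, n = 3) in preGM +/+, 6.51 ± 0.10 in preGM fl/p30, 6.77 ± 0.12 in GMP fl/+, 7.65 ± 0.17 in GMP fl/BRM2 and 7.75 ± 0.30 in GMP fl/p30. In the order of levels only the 2 GMP mutants overlapped, and each of the other neighbours was separated on all arrays.

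The p30 difference in P2rx7 was 0.98 ± 0.15 in GMPs (1.97-fold higher) and -0.68 ± 0.15 in preGMs (1.60-fold lower), which makes 1.65 ± 0.21 between the stages. These are the values it was chosen for and have no test. The difference between the stages also carries the different genotypes of their controls. The preGM fl/p30 mean of P2rx7, 6.51, lies not far above the array medians, so the preGM fold may be understated. From preGMs to GMPs P2rx7 differed by -0.41 in the controls and by 1.24 in fl/p30 cells. Without GMP fl/p30 replicate 1, its highest array, the GMP difference was 0.82 and the difference between stages 1.5.

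In GMP fl/BRM2 P2rx7 was 0.88 ± 0.15 above GMP fl/+ (1.84-fold). The BRM2 arrays had no part in the choice of P2rx7, but the GMP fl/+ arrays did, so this difference has no test either. Between the mutants P2rx7 differed by 0.10 ± 0.15.

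**Figure D1:**
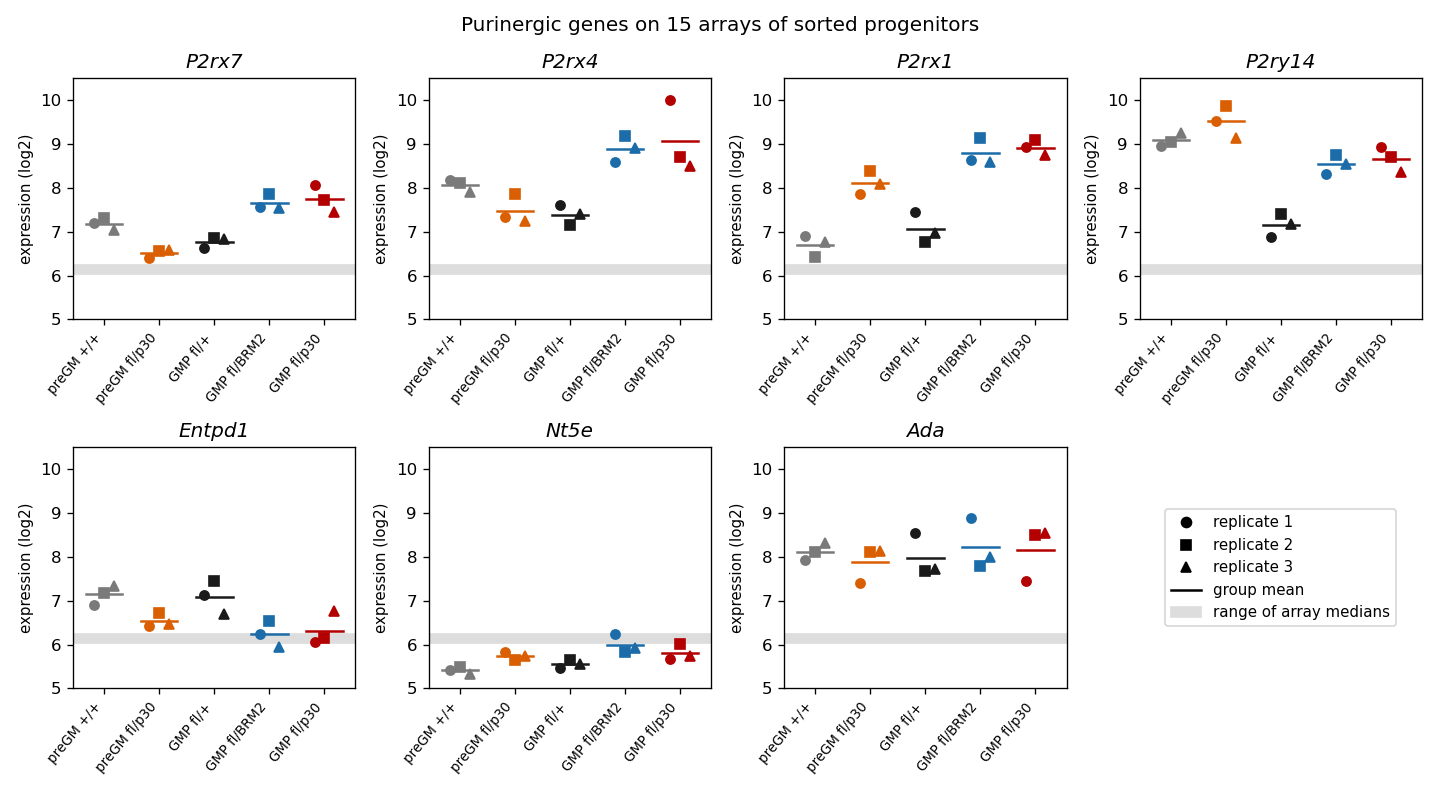
Expression (log2) of the 7 purinergic genes in 5 groups of sorted progenitors; each point is 1 array, marker shapes give the replicate, bars are group means and the grey band is the range of array medians (6.03 to 6.23). P2rx7 and P2rx4 are lowest in preGM fl/p30 and GMP fl/+, P2rx1 is high in the 3 mutant groups, P2ry14 is low in GMP fl/+, and Nt5e lies at or under the band.

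P2rx4 (probe set 10525439) encodes another ATP-gated channel, abundant in macrophages and in part held in lysosomes. Its arrays read 8.18, 8.12 and 7.91 in preGM +/+ and 7.35, 7.85 and 7.24 in preGM fl/p30. GMP fl/+ read 7.60, 7.16 and 7.40, GMP fl/BRM2 8.60, 9.18 and 8.91, and GMP fl/p30 9.996, 8.71 and 8.49. As for P2rx7, the preGM mutant lay below its control and the GMP mutants lay above theirs, with no overlap between arrays in any of these 3 contrasts. The shares of all genes separated in this way, 15.2% to 25.1%, apply here too. The first GMP fl/p30 array stood well above the other arrays of its group, whose SD was 0.81.

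P2rx4 rose in GMP fl/p30 by 1.68 ± 0.30 (3.20-fold, adjusted p = 0.00455 from limma over all 19937 genes, 3 arrays per group) and in GMP fl/BRM2 by 1.51 ± 0.30 (2.84-fold, adjusted p = 0.0168). Without GMP fl/p30 replicate 1 the former difference was 1.21 (adjusted p = 0.00574). When only the 6 arrays of the groups compared were fitted, its adjusted p was 0.127. The BRM2 call was lost without replicate 2 or 3 of GMP fl/+ or replicate 2 or 3 of GMP fl/BRM2 (adjusted p up to 0.113). In preGMs the p30 difference was -0.59 ± 0.30 (adjusted p = 0.403) and did not pass.

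The difference between the p30 effects of the 2 stages was 2.27 ± 0.43 for P2rx4. Its size lay at percentile 99.94 of all genes tested, and its adjusted p was 0.0746. With the animal as a random block, which the shared fl/p30 animals call for, that p was 0.0376. It also passed without replicate 1 of GMP fl/+ (0.0107) or replicate 3 of GMP fl/p30 (0.0193), and the difference was 1.80 (0.0973) without GMP fl/p30 replicate 1. From preGM fl/p30 to GMP fl/p30 P2rx4 rose by 1.59 ± 0.30 (3.00-fold, adjusted p = 0.0281). With the animal as a random block over all arrays its adjusted p was 0.00702, but it was 0.112 with the animal as a block in the 6 fl/p30 arrays alone and 0.167 in those 6 without a block. That call was lost without preGM +/+ replicate 1 or replicate 1 or 3 of preGM fl/p30 (adjusted p up to 0.15). Between the controls the same step was -0.68 ± 0.30 (adjusted p = 0.142), and without GMP fl/p30 replicate 1 in the fit its adjusted p was 0.0303.

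P2rx7 and P2rx4 are immediate neighbours on chromosome 5 with no coding gene between them, and their levels ran together over the arrays (Pearson r = 0.924, n = 15 arrays). The arrays fall into 5 groups, so this r describes the group means as much as the arrays. The genes around the pair were examined after its values were seen. Going outward, Ift81, Atp2a2 and Anapc7 lie on the P2rx7 side and Camkk2, Anapc5 and Rnf34 on the P2rx4 side, and their r with P2rx7 ran from -0.06 to 0.48.

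Of these 6 neighbours 1 was called in GMP fl/p30, where 6.06% of all genes were called. It was Ift81, a gene of cilium transport, at 0.64 ± 0.17 (adjusted p = 0.0403). That call was lost without any 1 of 9 arrays (replicate 1 or 2 of preGM +/+, preGM fl/p30 replicate 2, replicate 2 or 3 of GMP fl/+, replicate 1 or 3 of GMP fl/BRM2, replicate 1 or 2 of GMP fl/p30). None was called in GMP fl/BRM2 or preGM fl/p30, where Ift81 stood at 0.44 and -0.50, and its difference between stages was 1.14 (adjusted p = 0.0934). Its largest change was a fall by 1.17 between the controls (adjusted p = 0.0016, kept with any 1 array left out). From preGM fl/p30 to GMP fl/p30, where P2rx7 differed by 1.24 and P2rx4 by 1.59, Ift81 differed by -0.02, and its r with P2rx7 over the arrays was 0.227. Camkk2, whose gene model overlaps that of P2rx4, differed by -0.08, -0.14 and -0.28 in GMP fl/p30, GMP fl/BRM2 and preGM fl/p30. In the same order Rnf34 stood at 0.64 (adjusted p = 0.0714), 0.31 and 0.08. Anapc7, whose r with P2rx7 was the highest at 0.482, stood at 0.44, 0.37 and -0.19. Both Anapc7 and Ift81 thus had the signs of P2rx7 in these contrasts.

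**Figure D2:**
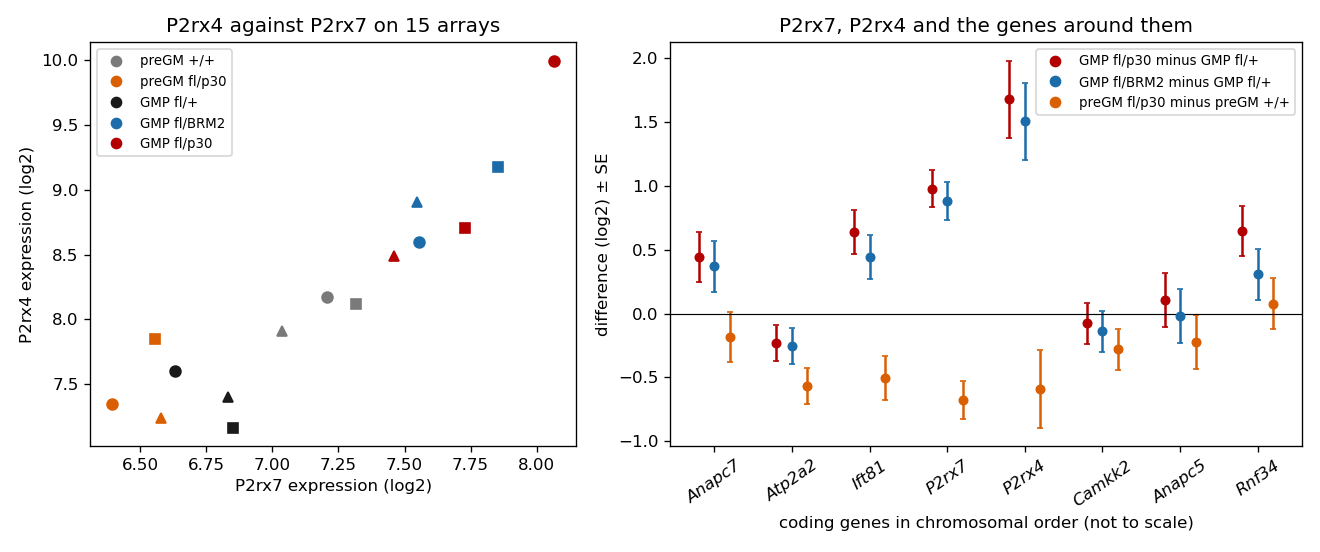
Left, P2rx4 against P2rx7 (log2) on the 15 arrays, coloured by group; right, difference from control (log2, ± SE, 3 arrays per group) of both genes and their 6 coding neighbours in chromosomal order, not to scale. The mutant GMPs sit at the upper right of the left panel. In the right panel the neighbours reach at most 0.64, P2rx7 0.98 and P2rx4 1.68. In preGM fl/p30 the neighbour Atp2a2 reaches -0.56, P2rx4 -0.59 and P2rx7 -0.68.

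P2rx1 (probe set 10378240), the ATP channel of platelets and smooth muscle that neutrophils also carry, rose in every mutant group. Its arrays read 6.91, 6.43 and 6.76 in preGM +/+ against 7.87, 8.38 and 8.10 in preGM fl/p30. In GMPs they read 7.45, 6.77 and 6.97 for fl/+, 8.64, 9.14 and 8.59 for fl/BRM2, and 8.93, 9.09 and 8.74 for fl/p30. No mutant array overlapped its control (15.2% to 25.1% of all genes were so separated in these contrasts), and the control groups overlapped each other. The mean of preGM fl/p30 (8.12 ± 0.26, SD) lay between those of the GMP controls (7.06 ± 0.35) and the GMP mutants (8.79 ± 0.30 in fl/BRM2 and 8.92 ± 0.18 in fl/p30).

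P2rx1 was higher by 1.42 ± 0.20 in preGM fl/p30 (2.68-fold, adjusted p = 0.00285), by 1.86 ± 0.20 in GMP fl/p30 (3.63-fold, adjusted p = 0.000113) and by 1.72 ± 0.20 in GMP fl/BRM2 (3.31-fold, adjusted p = 0.00038). All 3 calls were kept with any 1 array left out (adjusted p up to 0.0206). The p30 effects of the stages differed by 0.44 ± 0.29 (95% interval -0.17 to 1.05, adjusted p = 0.502). From preGM fl/p30 to GMP fl/p30 it stood 0.80 ± 0.20 higher (adjusted p = 0.101, 0.0219 with the animal block over all arrays and 0.0736 with it in the 6 fl/p30 arrays alone).

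P2ry14 (probe set 10498350), the receptor for UDP-glucose, fell between the control stages and stood high in the mutant GMPs. It read 8.95, 9.06 and 9.24 in preGM +/+, 9.52, 9.88 and 9.15 in preGM fl/p30 and only 6.89, 7.40 and 7.18 in GMP fl/+. The mutant GMPs lay between these, at 8.32, 8.75 and 8.55 with BRM2 and at 8.94, 8.71 and 8.36 with p30. GMP fl/+ stood below every other group on all arrays. Such separation, in either direction, was found for 34% of all genes between the controls, 17.4% in GMP fl/p30 and 15.2% in GMP fl/BRM2.

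From preGM +/+ to GMP fl/+ P2ry14 fell by 1.93 on the log2 scale (SE 0.20, 3.81-fold, adjusted p = 0.000152). Against GMP fl/+ it rose by 1.51 ± 0.20 in GMP fl/p30 (2.86-fold, adjusted p = 0.000469) and by 1.39 ± 0.20 in GMP fl/BRM2 (2.61-fold, adjusted p = 0.00172). These 3 calls were kept with any 1 array left out (adjusted p up to 0.0161). In preGMs the p30 difference was 0.43 ± 0.20 (adjusted p = 0.347), and the stages differed by 1.08 ± 0.28 (adjusted p = 0.157). From preGM fl/p30 to GMP fl/p30 the difference was -0.85 ± 0.20, with an adjusted p of 0.0807, which was 0.0137 with the animal block over all arrays and 0.0781 with it in the 6 fl/p30 arrays alone.

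Entpd1 (probe set 10463070), the gene of CD39, lay the other way. It read 6.91, 7.18 and 7.33 in preGM +/+, 6.42, 6.73 and 6.47 in preGM fl/p30, and 7.13, 7.45 and 6.70 in GMP fl/+. The mutant GMPs read 6.23, 6.54 and 5.95 with BRM2 and 6.05, 6.15 and 6.76 with p30, close to the array medians. The third GMP fl/p30 array overlapped the lowest GMP control, and the fl/BRM2 arrays did not (15.2% of all genes were so separated in GMP fl/BRM2).

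The differences in Entpd1 were -0.78 ± 0.22 in GMP fl/p30 (adjusted p = 0.0514), -0.86 ± 0.22 in GMP fl/BRM2 (adjusted p = 0.0561) and -0.60 ± 0.22 in preGM fl/p30 (adjusted p = 0.226), and none passed. The former passed without GMP fl/p30 replicate 3 (adjusted p = 0.0116) or replicate 3 of GMP fl/+ (0.0286), and was -0.60, with an adjusted p of 0.195, without replicate 2 of GMP fl/+. In GMP fl/BRM2 the difference passed without replicate 1 or 3 of GMP fl/+ or replicate 1 or 3 of GMP fl/p30 (adjusted p = 0.0257 at the lowest). With an empirical Bayes prior that follows the mean and resists outliers, both GMP differences passed (adjusted p = 0.0441 and 0.0455), and so they did when genes under the array medians were left out (0.0385 and 0.0417). In a fit of the preGM arrays alone the preGM difference passed as well (0.0353).

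Nt5e (probe set 10587639), the gene of CD73, was near or under background. It read 5.42, 5.49 and 5.34 in preGM +/+, 5.82, 5.64 and 5.74 in preGM fl/p30, and 5.47, 5.64 and 5.55 in GMP fl/+. In the GMP mutants it read 6.24, 5.82 and 5.92 with BRM2 and 5.67, 6.01 and 5.73 with p30. It exceeded the median of its array on 1 of 15 arrays. The mutant arrays lay above their controls in all 3 contrasts without overlap, by 0.32 ± 0.12 in preGM fl/p30 (adjusted p = 0.266), 0.25 ± 0.12 in GMP fl/p30 (adjusted p = 0.281) and 0.44 ± 0.12 in GMP fl/BRM2 (adjusted p = 0.0839). Separation alone is common, at 25.1%, 17.4% and 15.2% of all genes in these contrasts. No fold is given at this level, since values near background compress a change.

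Ada (probe set 10489391) varied too much within groups for its groups to be told apart. It read 7.92, 8.12 and 8.31 in preGM +/+, 7.40, 8.11 and 8.13 in preGM fl/p30, 8.55, 7.67 and 7.73 in GMP fl/+, 8.89, 7.78 and 8.0 in GMP fl/BRM2, and 7.45, 8.49 and 8.54 in GMP fl/p30. All 5 groups overlapped, and the largest of its mutant differences was 0.24 ± 0.34 (95% interval -0.49 to 0.97, GMP fl/BRM2, adjusted p = 0.836).

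Counted together, 3 of the 6 genes tested in GMP fl/p30 were higher and 0 lower, where 6.06% of all genes were called in either direction. In GMP fl/BRM2, against the same control arrays, 3 of 6 were higher and 0 lower, with 2.53% of all genes called. In preGM fl/p30 1 of 6 was higher, with 1.68% of all genes called. The median difference of the genes tested was 0.88 for GMP fl/p30, 0.91 for GMP fl/BRM2 and 0.04 for preGM fl/p30, against -0.04, -0.02 and 0.03 over all genes. All of the called genes are receptor genes.

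Between the 2 GMP mutants 0 of 6 were called by limma, and 1 of 19937 genes (0.00502%) was called in all. The differences of fl/p30 from fl/BRM2 were 0.14 for P2rx1 (95% interval -0.30 to 0.57), 0.17 for P2rx4 (-0.48 to 0.82), 0.13 for P2ry14 (-0.30 to 0.55), 0.08 for Entpd1 (-0.39 to 0.55), -0.19 for Nt5e (-0.45 to 0.08) and -0.06 for Ada (-0.79 to 0.67). Differences of up to 0.55 in P2rx1 and P2ry14, and of up to 0.82 in P2rx4, lie within these intervals. None of the 6 had an unadjusted p under 0.05 here.

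Between the fl/p30 stages 1 of 6 was called (P2rx4), with 0.642% of all genes called. With the animal as a block over all arrays it was 3 of 6, with 3.42% of all genes called, and with that block in the 6 fl/p30 arrays alone it was 0, with 0.356%. Between the controls 1 of 6 was called (P2ry14), where 10.2% of all genes were. For the difference between stages 0 of 6 were called (P2rx4 and P2ry14 had an unadjusted p under 0.05), where 0.00502% of all genes were called. An unadjusted p under 0.05 was found there for 2616 of all 19937 genes.

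**Figure D3:**
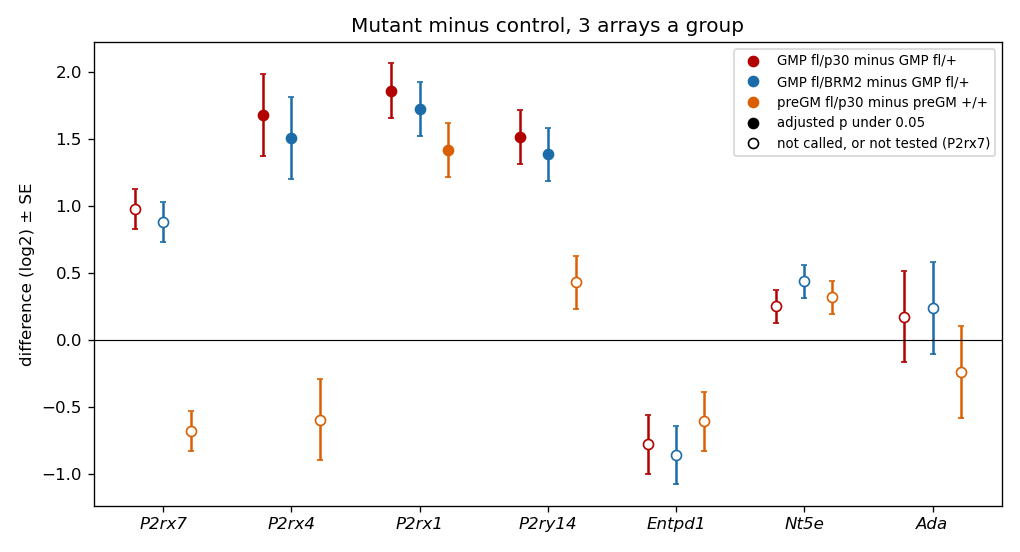
Difference between mutant and control (log2, ± SE, 3 arrays per group) of the 7 purinergic genes in GMP fl/p30, GMP fl/BRM2 and preGM fl/p30; filled points passed an adjusted p of 0.05, open points did not or, for P2rx7, were not tested. P2rx1 is filled in all 3 contrasts, P2rx4 and P2ry14 in both GMP contrasts, and P2rx7 and P2rx4 change sign between GMPs and preGMs.

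The genes whose levels ran most like P2rx7 over the 15 arrays were Slc4a1, the band 3 anion exchanger of red cells (r = 0.925), P2rx4 (0.924) and Cx3cr1, the fractalkine receptor of monocytic cells (0.924). Slc38a5, an amino acid transporter (0.887), and Myh10, a non-muscle myosin heavy chain (0.877), followed at levels close to the array medians. Slc4a1 averaged 6.59 in GMP fl/+ and 7.47 in GMP fl/p30, but its preGM means, 6.78 in +/+ and 6.47 in fl/p30, lay closer together than those of P2rx7. Cx3cr1 averaged 7.99 ± 0.10 (SD) in preGM +/+, 6.76 ± 0.48 in preGM fl/p30, 7.30 ± 0.05 in GMP fl/+, 8.33 ± 0.37 in GMP fl/BRM2 and 8.64 ± 0.71 in GMP fl/p30, the same order of groups as P2rx7.

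For Nt5e the most alike genes were Ttll6 (r = 0.826), Pga5, Tmprss7, Dapk2 and Gzmb (0.799). The means of Ttll6, Pga5, Tmprss7 and Dapk2 were at most 5.89, below the array medians, so these likenesses rest on values near background. Gzmb, the granzyme B gene, is the exception, with means from 5.09 in preGM +/+ to 11.93 in GMP fl/p30. Among the purinergic genes P2rx1 and Nt5e had r = 0.734, and P2rx1 and Entpd1 had r = -0.802. P2rx7 and P2ry14, both high in the mutant GMPs, had r = 0.04 over all 15 arrays.

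The remaining genes of the pathway were described by lists of receptors, extracellular breakdown, release and transport, salvage, synthesis and inflammasome output. Of 18 nucleotide and adenosine receptor genes 14 were measured. Of the 13 tested, the receptors called in any mutant were P2rx1, P2rx4 and P2ry14, described above. Among all genes, 1.68% were called for the preGM mutant, 2.53% for the BRM2 mutant and 6.06% for GMP fl/p30. With p30, the differences of P2rx2, P2rx5, P2rx6, P2ry2, P2ry4 and P2ry12 lay between -0.35 and 0.18 at both stages. P2ry6, a UDP receptor, stood at 0.36 in GMP fl/p30 (adjusted p = 0.214) and -0.12 in preGM fl/p30, and P2rx3, a channel of sensory neurons, at -0.54 (adjusted p = 0.313) and 0.06. P2ry13, an ADP receptor, stood at 0.74 in GMP fl/p30 (adjusted p = 0.214) and P2ry1, another, at 0.39 (adjusted p = 0.204).

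Of 10 measured genes of extracellular breakdown 1 was higher and 0 lower in each mutant contrast, and that gene was Dpp4. Beside this count, limma called 1.68% of all genes for preGM fl/p30, 2.53% for the BRM2 mutant and 6.06% for GMP fl/p30. Dpp4 encodes the surface peptidase CD26, which cuts peptides and not nucleotides, and is listed because the human protein anchors adenosine deaminase. Its arrays read 9.56, 9.47 and 9.59 in preGM +/+, 10.69, 10.54 and 10.49 in preGM fl/p30, and 7.82, 7.81 and 8.13 in GMP fl/+. They read 9.64, 10.68 and 10.05 in GMP fl/BRM2 and 10.92, 10.99 and 10.28 in GMP fl/p30. Dpp4, like P2ry14, fell from the preGM to the GMP control and stood high in the GMP mutants.

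Dpp4 rose by 2.81 in GMP fl/p30 (adjusted p = 1.16e-05) and by 2.20 in GMP fl/BRM2 (adjusted p = 0.000198), and fell by 1.62 between the controls (adjusted p = 0.00119). These calls were kept with any 1 array left out. Its rise of 1.04 in preGM fl/p30 (adjusted p = 0.0331) was lost without any 1 of the 6 preGM arrays (adjusted p up to 0.142). The median difference of the breakdown list was -0.08 in GMP fl/p30, where that of all genes was -0.04.

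Of 17 release and transport genes 1 was higher and 2 lower in GMP fl/p30, where 6.06% of all genes were called. Ank, an exporter of pyrophosphate, rose by 0.78, Slc28a2, a nucleoside transporter, fell by 0.69, and Abcc4, an exporter of cyclic nucleotides, fell by 1.16. The calls of Ank and Slc28a2 were lost without replicate 2 or 3 of GMP fl/+ or replicate 1 or 2 of GMP fl/p30, and that of Abcc4 without GMP fl/+ replicate 3 or replicate 1 or 2 of GMP fl/p30. In GMP fl/BRM2 Slc28a2 fell by 0.94, a call lost without GMP fl/BRM2 replicate 2 (adjusted p = 0.0757). Gja1 (connexin 43) was 1.16 higher there, a call lost without any 1 of the 6 preGM arrays or replicate 2 or 3 of GMP fl/BRM2 (adjusted p up to 0.168).

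Of 17 salvage genes 2 were higher and 0 lower in GMP fl/p30, where 6.06% of all genes were called. Samhd1, which breaks down deoxynucleotides, read 9.83, 9.45 and 9.57 in GMP fl/+ and 10.30, 10.25 and 10.22 in GMP fl/p30. Its rise of 0.64 (adjusted p = 0.00489) was kept with any 1 array left out. Nt5c3, a cytosolic pyrimidine nucleotidase, was 1.45 higher (adjusted p = 0.0491), a call lost without any 1 array except GMP fl/+ replicate 1.

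In GMP fl/BRM2 Nt5c3 was 1.77 and Samhd1 0.49 higher, and Xdh, which makes uric acid, fell by 1.0. Leaving out replicate 2 or 3 of GMP fl/+ or replicate 2 or 3 of GMP fl/BRM2 ended each of these calls. The same held for Xdh without preGM +/+ replicate 3, for Nt5c3 without replicate 1 or 3 of preGM +/+, and for Samhd1 without any 1 preGM array or GMP fl/p30 replicate 2.

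Of 12 synthesis genes 1 was lower in GMP fl/p30 (6.06% of all genes called), Pfas, which catalyses a step of purine ring assembly, at -0.65. That call was lost without replicate 2 or 3 of GMP fl/+ or replicate 1 or 2 of GMP fl/p30. In preGM fl/p30 0 of 12 were called by limma (1.68% of all genes called), with a list median of -0.38 against 0.03 over all genes. An unadjusted p under 0.05 was found there for 5 of the 12, and for 2794 of all 19937 genes.

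The inflammasome list, the output known for P2X7, had 10 of 10 genes measured. Txnip, an NLRP3 partner under oxidative stress, read 9.26, 9.54 and 9.52 in GMP fl/+ and 10.76, 10.40 and 9.89 in GMP fl/p30. It rose by 0.91 (adjusted p = 0.00748), a call kept with any 1 array left out, and the other 9 were not called in GMP fl/p30. Among all genes 6.06% were called in that contrast and 2.53% in GMP fl/BRM2. In GMP fl/BRM2 Txnip was 0.80 higher, a call lost without replicate 2 or 3 of GMP fl/+ or replicate 2 or 3 of GMP fl/BRM2. Gsdmd, the pore-forming gasdermin D, fell by 0.84 there, a call lost without GMP fl/BRM2 replicate 2. The list median was -0.02 in GMP fl/p30 and close to 0 in preGM fl/p30, beside -0.04 and 0.03 over all genes.

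**Figure D4:**
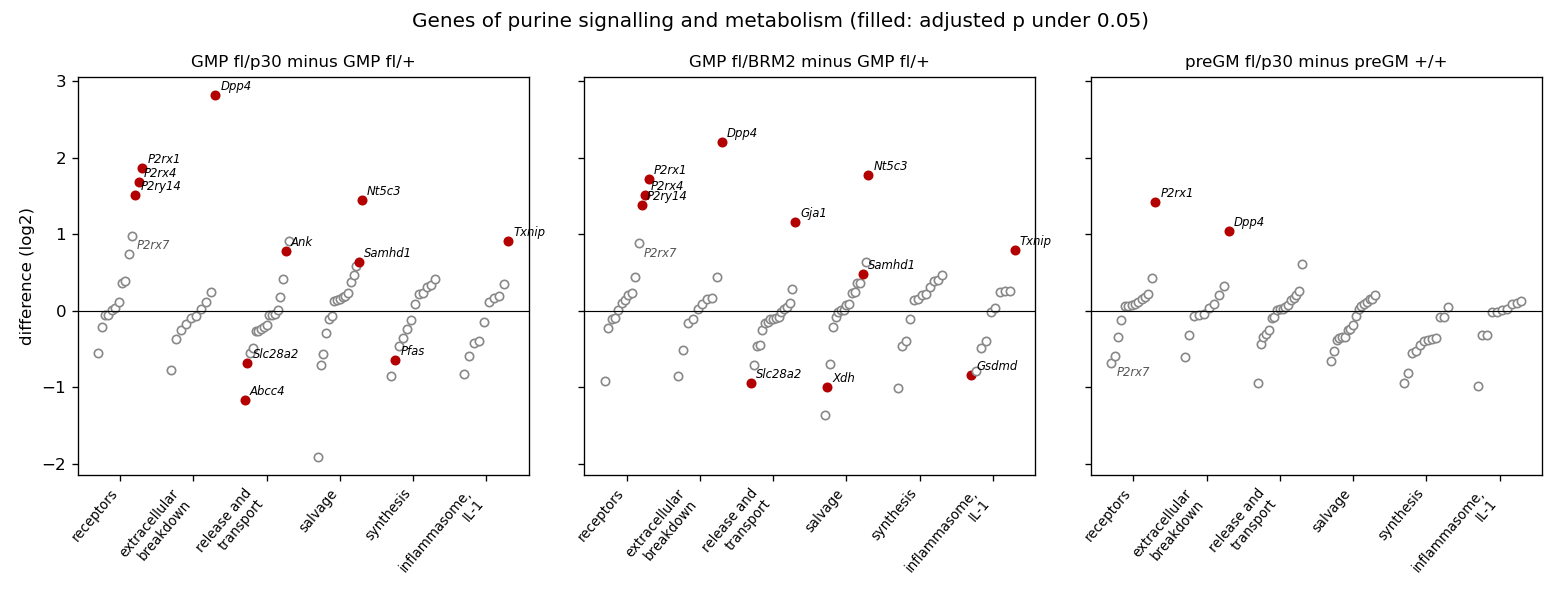
Differences between mutant and control (log2) of the measured genes of 6 lists of purine signalling and metabolism in GMP fl/p30, GMP fl/BRM2 and preGM fl/p30; each point is 1 gene, sorted within its list, and filled, named points passed an adjusted p of 0.05 (P2rx7 is named without a test). The named genes at 1 or more are P2rx1, P2rx4, P2ry14, Dpp4, Nt5c3 and Gja1, and preGM fl/p30 has only P2rx1 and Dpp4 filled.

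At the step from preGM +/+ to GMP fl/+ 10.2% of all genes were called. Against that share, 2 of 13 receptor genes, 3 of 10 breakdown genes, 3 of 17 release and transport genes, 6 of 17 salvage genes, 5 of 12 synthesis genes and 1 of 10 inflammasome genes were called. Of the synthesis genes 4 were lower and 1 higher, with a list median of -0.43 against 0.08 over all genes. Paics, another enzyme of ring assembly, fell by 0.56. Salvage had 3 genes in each direction, among them Gda, the guanine deaminase gene, which rose by 3.37, and Samhd1, which fell by 0.62. In release and transport Slc28a2 rose by 1.16 and Gja1 fell by 1.39, and Nek7, an NLRP3 activator, fell by 0.90. With Dpp4, these 7 calls were kept with any 1 array left out. Besides P2ry14, described above, the other 12 calls of the lists at this step were lost without GMP fl/+ replicate 2, and each without 1 or more further arrays (P2rx3, Entpd2, Acpp, Abcc6, Xdh, Dck, Nt5c3, Ampd2, Prps2, Ppat, Impdh1 and Adss, adjusted p up to 0.165).

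Markers of other blood lineages moved with these genes, and their part in the results was not tested. The marker counts stand beside the shares of all genes called. These were 6.06% in GMP fl/p30, 2.53% in GMP fl/BRM2, 1.68% in preGM fl/p30 and 10.2% between the controls. Of all 19937 genes 2985 in GMP fl/BRM2 and 2794 in preGM fl/p30 had an unadjusted p under 0.05. Of 5 measured erythroid markers 3 were higher in GMP fl/p30 (Gata1 1.05, Car1 3.26 and Car2 2.16) and the same 3 in GMP fl/BRM2 (1.20, 3.30 and 2.23), while limma called 0 in preGM fl/p30 (1 had an unadjusted p under 0.05) and 3 were lower from preGM +/+ to GMP fl/+. The 6 GMP calls were kept with any 1 array left out, and 1 of the calls between controls (Gata1) was lost without any 1 of 11 arrays, the 6 preGM arrays and the 3 GMP fl/+ arrays among them. No erythroid marker lay below the array median throughout a group. The mean of the erythroid list, as a deviation from each gene's mean, ranged from -1.32 to -0.91 in GMP fl/+, -0.22 to 0.80 in GMP fl/BRM2, -0.06 to 0.57 in GMP fl/p30, -0.09 to 0.13 in preGM +/+ and 0.44 to 0.60 in preGM fl/p30. GMP fl/+ was lowest in this list and in P2ry14, and preGM fl/p30, lowest in P2rx7, was high in this list. The relation of the list to these genes was not tested.

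Of 7 measured megakaryocyte and platelet markers, the lineage in which P2X1 is best known, 2 were higher in GMP fl/p30 (Itga2b 1.04 and Itgb3 0.68), 2 in GMP fl/BRM2 (Gp5 1.03 and Itgb3 0.82) and 0 by limma in preGM fl/p30 (2 had an unadjusted p under 0.05). All 4 calls were lost without 1 or more single arrays, Itgb3 without GMP fl/BRM2 replicate 2 or, for p30, GMP fl/+ replicate 2 or replicate 1 or 2 of GMP fl/p30, and Gp5 without any 1 of 10 arrays. The list mean ran from -0.45 to -0.39 in GMP fl/+, -0.10 to 0.38 in GMP fl/p30, 0.02 to 0.30 in GMP fl/BRM2, -0.35 to -0.01 in preGM +/+ and 0.09 to 0.51 in preGM fl/p30. Pf4, Gp5 and Ppbp lay below the array median in all GMP fl/+ arrays, and none did in GMP fl/p30. Of 7 mast and basophil markers 3 were higher and 2 lower in GMP fl/p30, and 3 higher and 1 lower in GMP fl/BRM2. In preGM fl/p30 1 was higher. The higher genes were Cpa3 (3.09, 3.00 and 2.53 in that order) and, in the GMP mutants, Gata2 (1.93 and 1.77) and Cma1 (1.52 and 1.57). The lower ones were Prss34 (-1.51 and -1.38) and, in GMP fl/p30 alone, Mcpt8 (-1.23). The mast and basophil list mean ran from -0.51 to 0.11 in GMP fl/+, 0.23 to 0.78 in GMP fl/p30, 0.52 to 0.92 in GMP fl/BRM2, -0.76 to -0.51 in preGM +/+ and -0.40 to -0.07 in preGM fl/p30.

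Neutrophil markers spread widely within the mutant GMPs. Their list mean was -1.63, -0.66 and 0.88 in the GMP fl/p30 arrays, 0.89, -0.90 and -0.01 in GMP fl/BRM2 and 1.87, 1.42 and 1.10 in GMP fl/+. Within GMP fl/p30 (replicate 1) and within GMP fl/BRM2 (replicate 2), the array lowest in this list was the highest in P2rx7, P2rx4 and P2ry14. P2rx1 was highest in replicate 2 of both groups. These arrays were also the lowest of their groups in the monocyte and purine synthesis lists. They were the highest in the erythroid, megakaryocyte, mast and basophil, and stroma lists, so this order is not particular to neutrophil markers. In the preGM groups the list lay at 0.21 to 1.18 in +/+ and -1.56 to -1.47 in fl/p30. P2rx7 was also lower in preGM fl/p30 than in preGM +/+, and the relation of list and gene was not tested. Of 9 neutrophil markers 4 (S100a8, S100a9, Ngp and Camp) were lower in GMP fl/p30, 1 in GMP fl/BRM2 (Camp) and 2 in preGM fl/p30 (Ltf and Ngp). Each of these 7 calls was lost without 1 or more single arrays, those of GMP fl/p30 without its replicate 1 or 2, that of GMP fl/BRM2 without any 1 of 8 arrays including all of its own, and those of preGM fl/p30 without any 1 of its own. Of 6 monocyte markers 2, 2 and 3 were lower in the same order, and none of either list was higher. F13a1 and Irf8 were the 2 markers in each contrast, joined in preGM fl/p30 by Csf1r. Their BRM2 calls were lost without GMP fl/+ replicate 2 or GMP fl/BRM2 replicate 2, and that of Csf1r without any 1 of 9 arrays, the 6 preGM arrays among them.

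Markers of stroma, endothelium, lymphoid and stem cells were read in the same way, beside the same shares of all genes called. Of 6 stroma and endothelium markers 2 were higher in both GMP mutants, Pecam1 (CD31, 1.5 with p30 and 1.35 with BRM2) and Pdgfrb (1.97 and 1.67), and these calls were kept with any 1 array left out. Cdh5, Kdr and Lepr of that list lay below the array median on all arrays. Its list mean ran from -0.40 to -0.30 in GMP fl/+, -0.02 to 0.26 in GMP fl/BRM2, 0.03 to 0.30 in GMP fl/p30, -0.19 to -0.06 in preGM +/+ and 0.09 to 0.29 in preGM fl/p30.

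Of 7 T and NK cell markers 2 were higher in GMP fl/p30 (Cd3g 0.96 and Klrd1 0.68) and limma called 0 in GMP fl/BRM2 (1 had an unadjusted p under 0.05) or preGM fl/p30 (0). Both genes lay below the array median on every array, and both calls were lost without any 1 GMP fl/p30 array, among others. The list mean was 0.34 to 0.38 in GMP fl/p30, -0.38 to -0.01 in GMP fl/+, -0.21 to -0.02 in GMP fl/BRM2, -0.19 to 0.11 in preGM +/+ and -0.12 to 0.09 in preGM fl/p30. Of 6 stem and multipotent markers Hlf was lower in GMP fl/p30 (-0.64), GMP fl/BRM2 (-0.71) and preGM fl/p30 (-1.17), and Flt3 in preGM fl/p30 (-1.79). The preGM calls were kept with any 1 array left out, and the GMP calls of Hlf were lost without any 1 array of their own mutant, among others. The stem list mean ran from 0.88 to 1.16 in preGM +/+, 0.09 to 0.62 in preGM fl/p30, -0.44 to -0.35 in GMP fl/+, -0.65 to -0.51 in GMP fl/p30 and -0.72 to -0.42 in GMP fl/BRM2.

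Of 6 B lymphoid markers limma called 0 in each mutant, with 0 at an unadjusted p under 0.05, but preGM +/+ replicate 3 stood apart in their mean, at 1.75 against -0.33 and -0.05 in the other preGM +/+ arrays and -0.48 to 0.41 in the remaining groups. Without that array the preGM difference of P2rx1 was 1.45 (adjusted p = 0.0129). The part of these lists in the purinergic results was not tested either.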

How the data were processed

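RNA of sorted progenitors was amplified from 20 ng, labelled with biotin and hybridised to 15 arrays, 3 per group, per the labels' protocols. The authors deposited log2 expression per probe set, made with affy by RMA (background correction, quantile normalization and a summary over probes), per the submitters' processing notes. The sources used here give neither versions nor filters. RMA pulls dim values together, so differences near background are understated. Precision is limited by the number of arrays, which have no read depth.

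Of 34760 probe sets 21640 carried 1 gene symbol in the platform annotation, 1321 several and 11799 none here. Each of 19937 genes was represented by the probe set with the highest mean, and no dim gene was left out. The 15 arrays entered 1 limma fit (3.58.1, in R 4.3.3, with eBayes) of 5 group means, tested on simulated data. Each of 7 comparisons had its own Benjamini-Hochberg adjustment across all genes, and adjusted p under 0.05 was a call. Unless another is named, adjusted p-values are from this fit. All members were named, with up to 6 called genes per list and the 5 genes most like P2rx7 and Nt5e; the neighbours of P2rx7 were added later. Members and lists were chosen with earlier results of these data known. Genes of the lists without a probe set of 1 symbol were not analysed here, among them Adora1, Adora2a, Adora2b and Adora3.

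Over genes, deviations of the fl/p30 arrays correlated at 0.334, 0.32 and 0.116 within an animal and at -0.308 to 0.154 between animals. Per the labels, each fl/p30 animal gave both a preGM and a GMP sample, so these groups count as paired. The animal was therefore also fitted as a random block (correlation 0.304). Nothing says that other replicates share more than their group. Alternatives changed the arrays in the fit, the variance prior, array weights, probe set rule, dim gene filter, scaling, blocks and a minimum difference of 1, and left out each array in turn. Promoter windows came from the RefSeq table of GRCm38.p6, and gene order from that of the same assembly.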

Additional observations from a re-analysis of the deposited data

Results flagged for a closer look

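P2rx7 and P2rx4 stood out because every fl/p30 array lay above its control in GMPs and below its control in preGMs. Separation on all arrays, in either direction, was found for 17.4% of all genes in GMP fl/p30 and 25.1% in preGM fl/p30. The share of all genes separated in opposite directions at the 2 stages was not computed. The difference between the p30 effects was 1.65 for P2rx7, which was chosen for this pattern and so was not tested. For P2rx4 it was 2.27, with a limma adjusted p of 0.0746, or 0.0376 with the animal as a block. Stage and control genotype cannot be told apart in these differences.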

How the results depend on the processing

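Of 176 recomputed counts of called genes 160 stayed within 1.5 times the first value, 11 rose and 5 fell beyond it. In GMP fl/p30 against fl/+ the count was 3, and 5 with array weights (Nt5e and Entpd1 added). In preGM fl/p30 against +/+ it was 1, and 2 in a fit of only the groups compared. From preGM fl/p30 to GMP fl/p30 it was 1, with 0 in a fit of only those groups, 3 with array weights, 3 with a replicate block by animal, 0 with a replicate block in the 6 paired arrays alone, and 0 to 3 with 1 array left out (1.12 to 1.87 for P2rx4). Between the controls it was 1, with 2 for array weights and 1 to 2 with 1 array left out. For the difference between stages it was 0, with 2 for array weights and 1 for the replicate block by animal. With 1 array left out it was 0 to 1. The replicate block by animal also raised the share of all genes called. It went from 0.642% to 3.42% between the fl/p30 stages, and from 0.00502% to 0.381% for the difference between stages. Shares with array weights are not given here, so those counts cannot be set against them. The replicate number as a fixed block over all arrays changed no member's call, and the other blocks changed no further ones. The cause of these changes was not tested, beyond the fewer arrays of the smaller fits.

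Between single genes, 20 of 1176 recomputed differences changed sign, none of them a called one. With array weights GMP fl/p30 minus fl/BRM2 became -0.18 for P2rx4, 0.0063 for Nt5e and 0.33 for Ada. The Nt5e difference between stages became 0.11 with array weights and 0.082 with re-quantiled values. With 1 array left out, the following ranges crossed 0. Between the GMP mutants these were -0.059 to 0.24 for P2rx7, -0.29 to 0.46 for P2rx4, -0.0061 to 0.28 for P2ry14, -0.14 to 0.23 for Entpd1 and -0.29 to 0.29 for Ada. For Ada they were also -0.014 to 0.53 in GMP fl/p30, -0.094 to 0.52 in GMP fl/BRM2, -0.36 to 0.0034 in preGM fl/p30 and -0.42 to 0.024 between controls. For Entpd1 they were -0.23 to 0.15 between controls and -0.39 to 0.0071 for the difference between stages, and for Nt5e -0.030 to 0.14 between the fl/p30 stages. The GMP calls of P2rx1 and P2ry14 held in every fit run. The filter on dim genes removed Nt5e, which has no value there.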
